A study of Mus musculus with 4 samples.

Results

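Prmt5 and 4 genes whose products work with it, Wdr77, Clns1a, Riok1 and Coprs, were examined in cultured satellite cells with and without a deletion of Prmt5. The 5 genes were chosen as Prmt5, its cofactor and its substrate adaptors, by Ensembl identifier with GENCODE M21 symbols, and all 5 were among the 20065 genes of the deposited table. RNA was sequenced from 4 libraries of C57BL/6 mouse cells, taken from limb and trunk muscles of adults. The 2 control libraries carried the genotype Pax7CreERT2/Prmt5+/loxP (+TAM). The 2 Prmt5sKO libraries carried Pax7CreERT2/Prmt5loxP/loxP (+TAM). All 4 therefore held the tamoxifen-inducible Cre under the Pax7 promoter, which is active in satellite cells, and were exposed to tamoxifen, in culture by the study's methods. A control cell keeps an intact Prmt5 allele beside its floxed allele, so every ratio compares homozygous floxed with heterozygous floxed cells. The labels call the libraries replicates without naming the animals behind them.

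PRMT5 is the main arginine methyltransferase that adds symmetric dimethylarginine to proteins, using S-adenosylmethionine as methyl donor. It is stable and active in a complex with the WD-repeat protein WDR77, also called MEP50, which binds substrates. Further proteins direct the complex: pICln, encoded by Clns1a, brings the Sm proteins of spliceosomal snRNPs, RIOK1 brings nucleolin, and COPRS directs the enzyme to histones. Satellite cells are the stem cells of skeletal muscle, and in culture they proliferate as myoblasts.

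The values are whole reads per library, recovered from the deposited group means and scaled by TMM, and are called normalized counts. Each group's libraries are named by depth, because the values carry no replicate number, and a pair of values gives the deeper library of the group first. Assigned reads numbered between 13240754 and 20047430 per library. Sex-linked transcripts showed that the libraries of a group differed in sex. Xist, which marks the inactive X of female cells, was at 8668 and 23.3 normalized counts in control cells and at 8.15 and 5655 in Prmt5sKO cells. The 4 Y-linked genes Ddx3y, Eif2s3y, Kdm5d and Uty together had 1 and 1871 reads in control cells and 4400 and 0 in Prmt5sKO cells. The spread within a group therefore includes a difference between sexes, and the deeper control library matches the shallower Prmt5sKO library in sex. All 9 satellite cell and myoblast markers checked were listed and tested, Pax7 with 3079 and 3002 normalized counts in the control and 3664 and 2570 in the Prmt5sKO. They were not all as even as Pax7. Both Prmt5sKO libraries lay above both control libraries for 3 of the 9 and below for 1, beside 25.2% and 23.6% of all genes tested. The median log2 fold change was 0.268, from -0.41 for Myf5 to 2.32 for Cd34. Des was at 14906 and 12514 in the control and at 14372 and 32171 in the Prmt5sKO. Of 7 markers of leukocytes, endothelium, fibro-adipogenic cells, adipocytes and Schwann cells, 5 had a row, and their summed level was between 50.3 and 123 in every library. Of these, Itgam was at 0 in the shallower control library and Cdh5 at 0 in the shallower Prmt5sKO library, while the satellite cell markers summed to between 42124 and 74419. The shallower Prmt5sKO library stood apart, with 229272 normalized counts summed over 8 markers of muscle differentiation, against 21548 in the deeper Prmt5sKO library and 8517 to 12780 in the control libraries. The difference was not confined to that library, since 7 of these 8 markers had both Prmt5sKO libraries above both control libraries, beside 25.2% of all genes tested. Their median log2 fold change was 2.73, and 0 were called by limma-voom. At an unadjusted p under 0.05, 5 of the 8 were higher, beside 6.01% of all genes tested. Ribosomal-type transcripts with Lars2 took 6.54% and 14.9% of control reads and 1.94% and 2.64% of Prmt5sKO reads. The part of these differences in the results below was not tested, and values without the shallower Prmt5sKO library are given beside the members.

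Prmt5, the catalytic subunit, is encoded on the minus strand of chr14:54507187-54517525 (GRCm38, ENSMUSG00000023110). The loxP sites flank its exon 7, counted along the transcript Prmt5-201 of 17 exons. Its sequence is given because recombination removes it. It lies at chr14:54513291-54513454 on the minus strand and is coding throughout. Capitals mark the 164 bases of exon 7, and the lower-case ends are 30 bases each of exons 6 and 8 in the spliced transcript (GENCODE M21, GRCm38), read 5′ to 3′.
Prmt5 exon 7: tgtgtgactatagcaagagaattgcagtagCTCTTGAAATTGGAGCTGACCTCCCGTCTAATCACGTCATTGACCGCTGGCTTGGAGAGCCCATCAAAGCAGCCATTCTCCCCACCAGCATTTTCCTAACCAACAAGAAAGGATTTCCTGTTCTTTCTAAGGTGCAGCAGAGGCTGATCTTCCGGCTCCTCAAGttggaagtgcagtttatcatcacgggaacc
The exon makes up 6.09% of the 2691-base transcript. Its length leaves a remainder of 2 after division by 3. Joining exon 6 to exon 8 in the reference ended the reading frame after 242 of 637 codons, at a stop codon 114 bases into exon 8. The transcripts made in these cells were not examined at this level, since the counts are per gene.

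Prmt5 was lower in both Prmt5sKO libraries than in either control library. Its normalized count was 2273 and 2906 in the control (2589 ± 448, SD, n = 2). In the Prmt5sKO it was 243.8 and 202.1 (223 ± 29.4, SD, n = 2). The groups did not overlap, and each Prmt5sKO library held between 6.96% and 10.7% of the level of a control library, depending on the pair. Within the sex-matched pairs it held 8.89% and 8.39%. These values rest on 2011 and 2241 reads in the control and 329 and 201 reads in the Prmt5sKO libraries. The log2 fold change, Prmt5sKO over control, was -3.52 (SE 0.271, 95% interval -4.18 to -2.86), or 11.4 times lower. Prmt5 had the smallest p of all 16212 genes tested by limma-voom, with an adjusted p of 0.193, and its log2 fold change ranked 35 from the lowest. With the sex-matched libraries paired in the fit, which is the same as a term for sex, it was -3.54 and passed the call described next (limma-voom adjusted p = 0.011). With the libraries paired by depth, the limma-voom adjusted p was 0.229. The call also depended on the libraries kept, with a limma-voom adjusted p of 0.018 without the shallower and 0.00321 without the deeper Prmt5sKO library, but 0.361 without the deeper and 0.968 without the shallower control library. The log2 fold change without the shallower Prmt5sKO library was -3.40.

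A gene was called where its adjusted p did not exceed 0.05 and its level changed by 2 times or more. By limma-voom, 0 of the 5 members passed it, as did 0 of all 16212 genes (0%), and limma-trend also called 0. At an unadjusted p under 0.05, 1 of the 5 passed, Prmt5, beside 2101 of all genes (13%). Both Prmt5sKO libraries lay below both control libraries for 2 of the 5, Prmt5 and Wdr77, beside 23.6% of all genes. The groups overlapped for the other 3, beside 51.2% of all genes, and the log2 fold change was below 0 for 3 of the 5, beside 48.6%. Among the 4 members without Prmt5, 1 had both libraries below (25.0%), near the 23.6% of all genes. An exact two-sided permutation test on 2 against 2 libraries cannot go below p = 0.333, the value it gave for Prmt5 and for Wdr77. The remaining Prmt5 reads in the knockout may come from cells that kept the exon or from transcripts without it, which cannot be told apart here, and neither can fewer expressing cells and less RNA per cell.

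**Figure D1:**
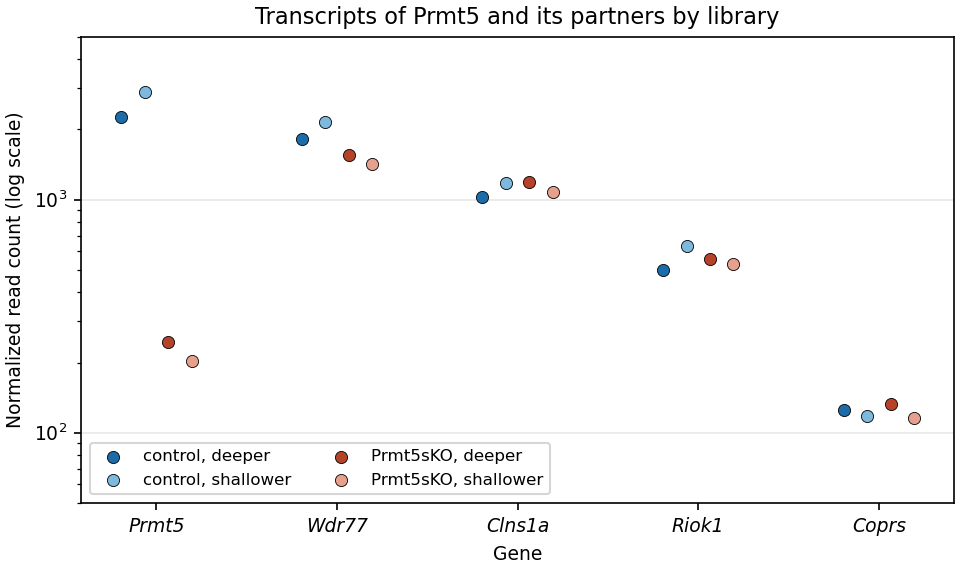
Normalized counts of Prmt5, Wdr77, Clns1a, Riok1 and Coprs on a log axis, with 1 point per library. Prmt5 lies at 2273 and 2906 in the control and at 243.8 and 202.1 in the Prmt5sKO, while the points of Clns1a, Riok1 and Coprs overlap between groups.

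Wdr77, the partner that PRMT5 needs for full activity, showed a smaller difference in the same direction. Its gene lies on the plus strand of chr3:105959369-105970037 (ENSMUSG00000000561). Its normalized count was 1816 and 2148 in the control (1982 ± 234.5, SD, n = 2) and 1562 and 1417 in the Prmt5sKO (1489 ± 102.4, SD, n = 2). Every Prmt5sKO value was below every control value, but the nearest pair differed little, with the deeper Prmt5sKO library at 86.0% of the deeper control library. Within the sex-matched pairs the Prmt5sKO level was 78.0% and 72.7% of control. The log2 fold change was -0.41 (SE 0.207, 95% interval -0.91 to 0.10), and did not pass by limma-voom (adjusted p = 0.444, and 0.318 with the sex-matched libraries paired). The interval runs from 0.531 to 1.07 times the control level. The log2 fold change stayed below 0 in 12 of 12 alternatives, and was -0.34 without the shallower Prmt5sKO library. In GENCODE M21, 31.5% of the exonic length of Wdr77 is shared with Gm42890 on the same strand or Atp5f1 on the opposite strand. How far this touched its count was not tested, and whether the annotation used for counting held Gm42890 is not given in the sources used here. A processed pseudogene, Gm15528, also matches 869 bases of its transcript at 94.591% identity.

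The promoters of Prmt5 and Wdr77 are shown, as the members whose libraries did not overlap. For Wdr77 this does not set it apart, since 23.6% of all genes tested had both Prmt5sKO libraries below both control libraries. Each run covers 300 bases around the transcription start of RefSeq (GRCm38.p6), which for Wdr77 lies inside the gene body of GENCODE M21, Prmt5 at chr14:54517421-54517720 on the minus strand and Wdr77 at chr3:105959248-105959547 on the plus strand, each read 5′ to 3′ along its gene. Capitals mark matches on either strand to the E-box CACGTG, the CCAAT box (CCAAT) and the GC box (GGGCGG).
Prmt5 promoter: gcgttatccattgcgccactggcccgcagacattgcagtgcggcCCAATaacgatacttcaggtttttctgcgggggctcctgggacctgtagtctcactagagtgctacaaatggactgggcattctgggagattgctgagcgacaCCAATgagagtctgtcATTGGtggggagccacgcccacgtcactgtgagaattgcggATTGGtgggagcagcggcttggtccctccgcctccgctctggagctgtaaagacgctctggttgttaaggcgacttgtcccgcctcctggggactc
Wdr77 promoter: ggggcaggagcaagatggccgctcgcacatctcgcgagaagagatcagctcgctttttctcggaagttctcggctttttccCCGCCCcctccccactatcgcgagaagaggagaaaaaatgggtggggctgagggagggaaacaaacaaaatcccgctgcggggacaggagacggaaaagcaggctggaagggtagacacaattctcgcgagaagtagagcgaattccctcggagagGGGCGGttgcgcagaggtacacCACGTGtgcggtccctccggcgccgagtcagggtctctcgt
The Prmt5 run held 4 CCAAT matches and no match to the other motifs. The Wdr77 run held 1 E-box and 2 GC boxes and no CCAAT match. Among 32851 promoters of this length, 37.4% held a CCAAT match, 35.7% a GC box and 7.15% an E-box. No matches overlapped in either run. Of the other members, Clns1a held 1 E-box and Riok1 none of the motifs. The matches describe the letters in these windows.

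The adaptors did not separate the groups. Clns1a, whose product pICln presents Sm proteins to the enzyme, lies on the plus strand of chr7:97696634-97720796 (ENSMUSG00000025439). Its normalized count was 1023 and 1180 in the control and 1189 and 1075 in the Prmt5sKO. The Prmt5sKO values reached from inside the control range to just above it, and the means differed by less than the gap between the control libraries. The log2 fold change was 0.04 (SE 0.209), adjusted p = 0.94 by limma-voom, and the interval of the difference runs from 0.724 to 1.47 times the control level. A pseudogene, Gm14131, matches 679 bases of its transcript at 93.667% identity.

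Riok1, the atypical kinase that competes with pICln for the complex, lies on the plus strand of chr13:38036995-38061433 (ENSMUSG00000021428). It was measured at 499.5 and 630.3 normalized counts in control cells and at 557.2 and 532.0 in Prmt5sKO cells. Both Prmt5sKO values fell between the control values. The log2 fold change was -0.04 (SE 0.238), adjusted p = 0.959 by limma-voom, with an interval from 0.651 to 1.46 times the control level.

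Coprs, the adaptor for histone methylation, lies on the minus strand of chr8:13884794-13890281 (ENSMUSG00000031458) and had the lowest counts of the members in the control libraries. Its normalized count was 125.4 and 118.0 in the control, and 133.4 and 115.7 in the Prmt5sKO. The Prmt5sKO values enclosed the control values. Its log2 fold change was 0.04 (SE 0.359), adjusted p = 0.973 by limma-voom. It had 91 to 180 reads per library, and its interval, from 0.559 to 1.88 times the control level, is the widest of the 5. The values are compatible with changes within that interval, and the size of change that could be detected was not tested. Without the shallower Prmt5sKO library, the log2 fold changes of Clns1a, Riok1 and Coprs were 0.12, -0.0038 and 0.13.

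**Figure D2:**
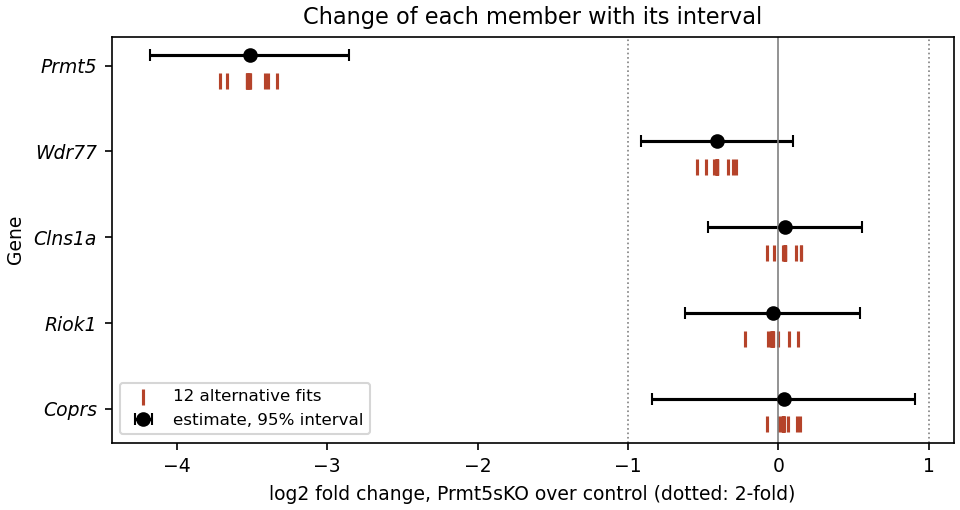
Log2 fold change of each member, Prmt5sKO over control, with its 95% interval from limma-voom. The interval of Prmt5 runs from -4.18 to -2.86, and the intervals of Wdr77, Clns1a, Riok1 and Coprs include 0.

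Levels of the members were then compared within each library, per kilobase of exon and scaled to the same total in each library over the genes of the table (TPM scale). Prmt5 had the highest level of the 5 in the control, at 57.9 and 101. Wdr77 followed with 37.9 and 61.1, and Clns1a with 26.8 and 42.2. Riok1, at 5.33 and 9.18, and Coprs, at 4.63 and 5.95, were far lower. The order was the same in both control libraries, although the ranges of neighbours overlapped between libraries for Prmt5 and Wdr77, Wdr77 and Clns1a, and Riok1 and Coprs.

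In the Prmt5sKO libraries Wdr77 ranked highest, at 44.0 and 23.6 on the TPM scale. Clns1a was close to it, at 42.0 and 22.5. Prmt5, at 8.39 and 4.12, was near Riok1, at 8.03 and 4.54, and Coprs was at 6.65 and 3.42. Prmt5 thus went from rank 1 to rank 4 by the group mean. With all exons as the length it was level with Riok1, whose order with Prmt5 differed between the libraries. The levels of the other members on this scale differed more between libraries of a group than between groups.

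The ratio of a partner to Prmt5 within a library was steadier, except for Coprs in the control, at 0.08 and 0.0588. Wdr77 stood at 0.653 and 0.604 times the Prmt5 level in the control, and at 5.24 and 5.73 times it in the Prmt5sKO. Clns1a went from 0.462 and 0.417 to 5.01 and 5.46. As shares of the level summed over the 5 members, Prmt5 held 43.7% and 46.1% in the control and 7.7% and 7.08% in the Prmt5sKO libraries. The share of Wdr77 was 28.6% and 27.8%, then 40.3% and 40.6%. These shares move with the Prmt5 level itself and were not tested. With the length of the longest transcript in place of all exons, the control mean of Riok1 was 21.6 rather than 7.26 on the TPM scale. Prmt5 still ranked 1 in the control and 4 in the Prmt5sKO, and Clns1a ranked above Wdr77 in the Prmt5sKO. Riok1 was then not level with Prmt5 in the Prmt5sKO, at 23.7 and 14.2 against 10.5 and 5.49. In the control, Riok1 (16.3 and 26.9) then did not overlap Coprs (5.71 and 7.05), nor Prmt5 (75.3 and 126) Wdr77 (37.8 and 58.6).

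**Figure D3:**
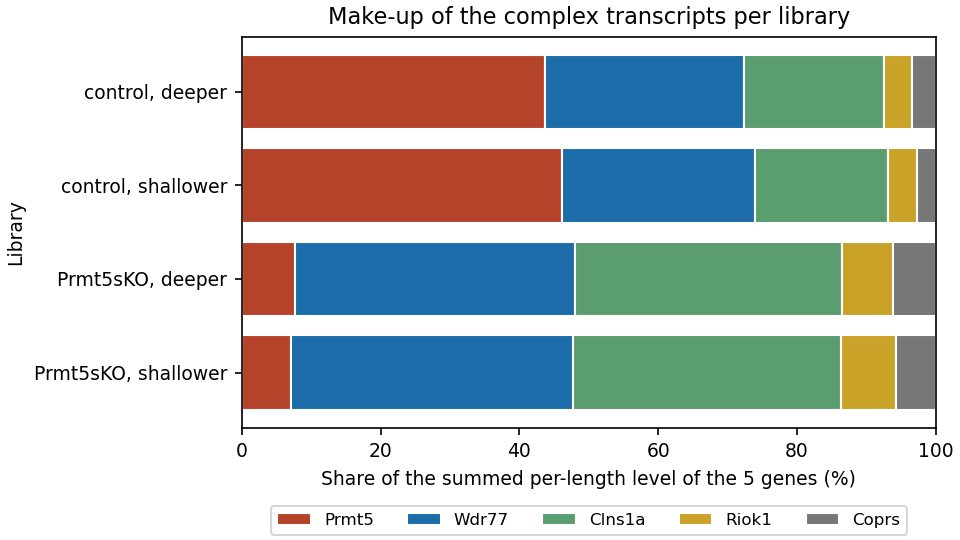
Share of each member in the level summed over the 5 members, in percent, with 1 stacked bar per library. Prmt5 takes 43.7% and 46.1% in the control and 7.7% and 7.08% in the Prmt5sKO.

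Among 10304 other genes with a mean of at least 100 normalized counts, those nearest to Prmt5 were measured by the Euclidean distance between log2 counts centred over the 4 libraries. Hist1h4j was nearest, at a distance of 0.92, followed by Hist1h2ag at 1.05 and Hist1h2ah at 1.17. Hist1h4j was measured at 1278 and 2494 normalized counts in the control and at 269.7 and 265.5 in the Prmt5sKO. These are replication-dependent histone genes with near-identical copies, so their counts are uncertain. Nearest to Wdr77 were Zc3h13, at a distance of 0.0269, Ralgapa2 at 0.0277 and Tigar at 0.0336. The distances are descriptions over 4 libraries.

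Genes around the complex were taken from 4 lists, and 0 of their genes were called by limma-voom. Of the 11 partner proteins tested, which bind PRMT5 or act on it, 8 had both Prmt5sKO libraries below both control libraries, 0 had both above, and the median log2 fold change was -0.427. Over all genes tested, 23.6% lay below and 25.2% above, and the median was 0.0217. Ncl, encoding nucleolin, the cargo of RIOK1, was at 17660 and 23773 normalized counts in the control and at 11994 and 8365 in the Prmt5sKO. Its libraries did not overlap, with a log2 fold change of -1.04 and a limma-voom adjusted p of 0.276. At an unadjusted p under 0.05, Ncl was the 1 gene of this list, beside 6.95% of all genes lower and 6.01% higher. Stub1, a ubiquitin ligase that acts on PRMT5, had a log2 fold change of -0.69. Jak2, the kinase whose mutant form phosphorylates PRMT5, and Ccnd1, which encodes cyclin D1, had -0.06 and 0.08.

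Of 21 genes for PRMT5 substrates, all tested, 12 had both Prmt5sKO libraries below and 4 above, beside 23.6% and 25.2% of all genes. The median log2 fold change was -0.274. It was -0.418 without the deeper and -0.251 without the shallower control library, and -0.325 without the deeper and -0.198 without the shallower Prmt5sKO library. At an unadjusted p under 0.05, 3 of the 21 were lower and 2 higher, beside 6.95% and 6.01% of all genes. E2f1, a transcription factor of S-phase entry, was at 945.9 and 1036 normalized counts in the control and at 280.1 and 482.7 in the Prmt5sKO. Its log2 fold change was -1.46 (limma-voom adjusted p = 0.236, and 0.0503 with the sex-matched libraries paired). The Prmt5sKO values lay apart from the control values. Pdcd4, an inhibitor of translation, lay the other way, at 433.9 and 229.5 against 989.9 and 696.9. Its log2 fold change was 1.38 (limma-voom adjusted p = 0.276, and 0.0964 with the sex-matched libraries paired). Fen1, a nuclease of DNA replication and repair, had a log2 fold change of -1.09, and Trp53bp1, a DNA damage protein, 0.52.

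The methyl donor list covers S-adenosylmethionine synthesis and the polyamine and methionine salvage steps that handle methylthioadenosine, an inhibitor of PRMT5. All 12 genes were tested, and 5 had both Prmt5sKO libraries below and 0 above, beside 23.6% and 25.2% of all genes. The median log2 fold change was -0.244. It was -0.13 without the shallower control library, -0.154 without the shallower and -0.421 without the deeper Prmt5sKO library. Srm, spermidine synthase, was at 1440 and 2612 normalized counts in the control and at 938 and 844.8 in the Prmt5sKO. Its log2 fold change was -1.12 (limma-voom adjusted p = 0.287, and 0.0596 with the sex-matched libraries paired). Adi1 had -0.74, Amd1 0.14 and Apip 0.28, each with libraries that overlapped between groups. Mtap, which clears methylthioadenosine and is named after its values were seen, was at 3831 and 3259 against 2405 and 2241. Its libraries did not overlap, with a log2 fold change of -0.61 and a limma-voom adjusted p of 0.329. With the sex-matched libraries paired, its limma-voom adjusted p was 0.18.

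The SMN complex loads Sm proteins, once methylated by PRMT5, onto snRNA. Of its 9 listed genes 8 were tested, of which 4 had both Prmt5sKO libraries below and 0 above, beside 23.6% and 25.2% of all genes. The median log2 fold change was -0.39. Gemin6 was at 354.8 and 351.5 normalized counts in the control and at 191.2 and 176.0 in the Prmt5sKO. Its log2 fold change was -0.94 (limma-voom adjusted p = 0.295, and 0.144 with the sex-matched libraries paired). Gemin5, the subunit that binds snRNA, had -0.73. Smn1 itself had -0.22 and Gemin8 0.14, both with overlapping libraries. The list's median was -0.0924 without the shallower Prmt5sKO library.

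**Figure D4:**
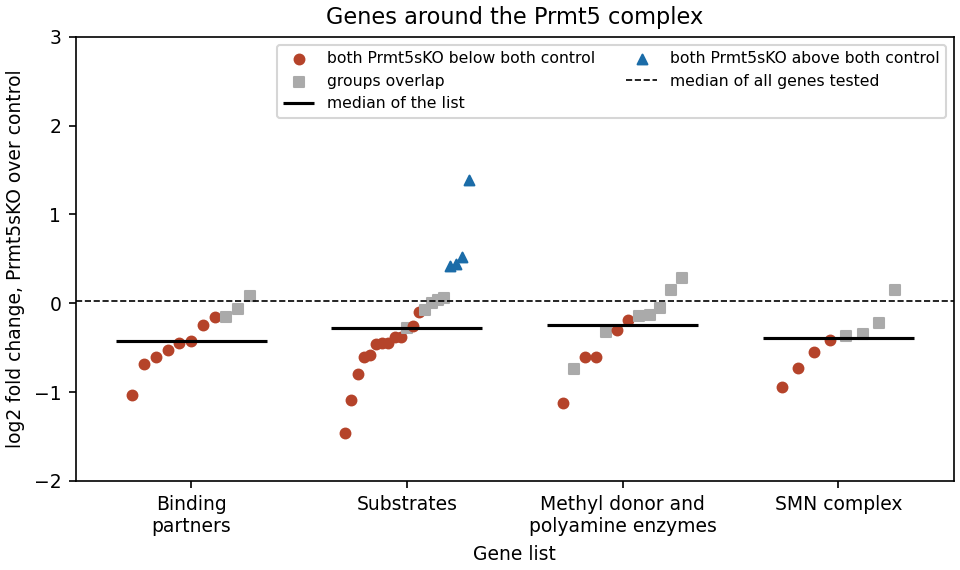
Log2 fold change, Prmt5sKO over control, of each tested gene in 4 lists around the complex, with 1 point per gene and a line at the median of each list. The medians are -0.427 for binding partners, -0.274 for substrates, -0.244 for the methyl donor list and -0.39 for the SMN complex, against 0.0217 over all genes.

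Genes next to Prmt5 were examined because the floxed locus was changed by recombination. Within 100 kb of the gene body, 14 genes are annotated and 9 were tested, of which 0 were called by limma-voom. At an unadjusted p under 0.05, 1 of the 9 passed, beside 13% of all genes tested. Both Prmt5sKO libraries lay below both control libraries for 4 of the 9 and above for 0, beside 23.6% and 25.2% of all genes. The log2 fold change was below 0 for 5 and above 0 for 4, with a median of -0.346 and a highest value of 1.18. Haus4, a subunit of the augmin complex of the mitotic spindle, lies 24.3 kb away and was at 819.3 and 770.3 normalized counts in the control and at 486.0 and 321.8 in the Prmt5sKO. Its log2 fold change was -0.98 (limma-voom adjusted p = 0.28, and 0.101 with the sex-matched libraries paired). Rem2, a small GTPase gene 26.8 kb away on the other side, was at 70.06 and 57.06 against 35.56 and 19.11. Its log2 fold change was -1.23 (limma-voom adjusted p = 0.416, and 0.329 with the sex-matched libraries paired). Further out, Lrp10 at 35.7 kb had -0.35 with libraries that overlapped. Ajuba at 49.9 kb, itself a PRMT5-binding protein, was at 1723 and 1176 against 1070 and 1052 (log2 fold change -0.43). The lowest log2 fold change among the neighbours was that of Rem2, against -3.52 for Prmt5.

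**Figure D5:**
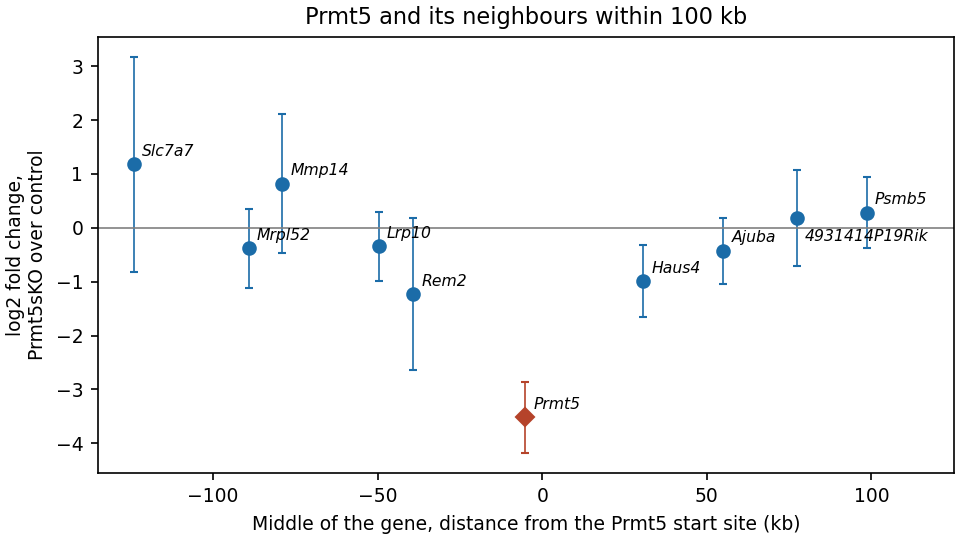
Log2 fold change, Prmt5sKO over control, of Prmt5 and the 9 tested genes within 100 kb, plotted at the distance in kb of the middle of each gene from the Prmt5 start site, with 95% intervals. Prmt5 lies at -3.52, and the neighbours lie between -1.23 and 1.18.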

How the data were processed

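RNA depleted of ribosomal RNA from 2 control and 2 Prmt5sKO cultures was sequenced on an Ion Torrent instrument. Trimming (Reaper), alignment to GRCm38 (STAR 2.4.0a), counting per gene, with reads of several genes or sites unassigned, and normalization (DESeq2) were done by the authors. The signal columns deposited give a mean of normalized counts for each group. The deposited fold changes, standard errors and p-values are the authors' comparisons and were not used.

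Because a library's normalized counts are multiples of its own step, each mean was solved for the reads of both libraries, which were recovered for 100% of 20065 genes, each with 1 solution (largest relative residual 6.2e-15). Reads were scaled by TMM (trims of 30% and 5%) and tested by limma-voom (limma 3.58.1, R 4.3.3) for the 16212 genes with a mean of at least 5, with Benjamini-Hochberg adjustment over all of them. The test was checked on simulated data, which held no difference between sexes and no library standing apart. Depth was 13240754 to 20047430 reads. Symbols came from GENCODE M21 for 19782 genes. Promoters of 4 members matched in RefSeq.

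The members and lists were chosen with earlier results of these data known. The text names all members, from each list the 2 genes with the largest and the 2 with the smallest log2 fold change, the 2 nearest tested neighbours on each side, and the 3 genes most like Prmt5 and Wdr77. Alternatives changed the scaling, filter, model, pairing, ribosomal-type reads, gene length and libraries.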

Additional observations from a re-analysis of the deposited data

How the results depend on the processing

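Prmt5 kept a log2 fold change between -3.71 and -3.334 in 12 alternatives, with limma adjusted p from 0.00321 to 0.968, and Wdr77 one between -0.5432 and -0.2804. Of the 5 members, 1 (Prmt5) was called without the deeper Prmt5sKO library, 1 without the shallower Prmt5sKO library and 0 without either control library, so leaving out a library gave 0 to 1. The lists gave 0 to 1 call, Ncl (-1.294) without the deeper Prmt5sKO library. The columns carry no replicate numbers. Under the replicate block that pairs the deeper library of each group with the shallower of the other, which are the pairs of the same sex by Xist and Y-linked reads, 1 member was called (Prmt5, -3.536, adjusted p = 0.011) and 346 of all genes, against 0 of all genes when the deeper libraries were paired. Deviations from the group means correlated at 0.351 for the sex-matched pairing, over 10305 genes. The value for the other pairing, -0.351, is the same number with its sign turned and adds nothing. Over all genes, 489 were called without the deeper and 55 without the shallower Prmt5sKO library. The cause of these differences was not tested, and a group left with 1 library is assumed to vary like the other. Scaling by library size only moved the median of all genes from 0.0217 to 0.13, and gave Riok1 0.06855 and Jak2 0.04196, both under that median, with list medians of -0.167 for substrates and -0.139 for the methyl donor list. Leaving out a library also turned the sign of small changes, which ran up to 0.1533 for Clns1a, 0.3899 for Ccnd1, 0.729 for Amd1, 0.6557 for Apip and 0.4394 for Gemin8, and down to -0.2824 for Jak2, -0.5014 for Smn1 and -0.2229 for Riok1. Without the deeper control library Clns1a was at -0.07447, Amd1 at -0.2129 and Gemin8 at -0.189, and without the shallower one Riok1 was at 0.1334 and Ccnd1 at -0.04038. Without the deeper Prmt5sKO library Clns1a was at -0.0294, Coprs at -0.07641, Ccnd1 at -0.22 and Amd1 at -0.4745. Without the shallower one Jak2 was at 0.1391, Apip at -0.02762 and Smn1 at 0.02699. The list medians stayed below 0 in every alternative run.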
